A study of Mus musculus with 22 samples.

Results

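The glucose sensing and KATP channel genes described here are 8 genes, *Slc2a2*, *G6pc2*, *Pcx*, *Ucp2*, *Abcc8*, *Kcnj11*, *Ush1c* and *Trpm5*. They were chosen by name, with earlier results of these data known. They were matched to Ensembl gene identifiers in both count tables, of 27124 genes listed at E14.5 and 27504 listed at P9. *Ush1c* was included because it lies next to *Abcc8* on chromosome 7. All 8 passed the filter on low counts at both ages, *Trpm5* at P9 mainly through its Control reads. RNA was sequenced from libraries of 100 tdTomato+ cells sorted from the mouse pancreas, at E14.5 and from pups called P9 in the labels (collected at P9-P10). *Isl1CKO* cells (5 libraries at E14.5, 6 at P9) carried *Isl1* f/f, Neurod1-Cre and the Ai14 tdTomato reporter. Control cells (6 libraries at E14.5, 5 at P9) are called WT in the labels, whereas the study's text gives *Isl1* f/+ with the same Cre and reporter for E14.5. The sorted population is therefore every cell with a history of *Neurod1* promoter activity and not a purified β-cell fraction, both sexes were used, and the P9 tissue alone was digested with collagenase before trypsin. The study calls the libraries of a group biological replicates.

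In the β cell, glucose enters through a facilitative transporter, is phosphorylated and is oxidised in mitochondria. The rising ratio of ATP to ADP closes ATP-sensitive potassium (KATP) channels, the membrane depolarises, calcium enters and insulin is released. *Slc2a2* encodes the transporter GLUT2, and *G6pc2* an islet glucose-6-phosphatase that reverses this phosphorylation. *Pcx* encodes pyruvate carboxylase, which feeds pyruvate carbon into the mitochondrial cycle, and *Ucp2* a carrier of the mitochondrial inner membrane. *Abcc8* encodes the sulfonylurea receptor and *Kcnj11* the pore of the KATP channel. *Trpm5* encodes a calcium-activated cation channel that is also known from taste and tuft cells, and *Ush1c* encodes the scaffold protein harmonin.

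Counted reads per library ranged from 11299969 to 13580985 in *Isl1CKO* and from 11321441 to 12792167 in Control at E14.5, and from 8477482 to 11439791 in *Isl1CKO* and from 11195637 to 13435089 in Control at P9. *Isl1* itself was lower in *Isl1CKO* at E14.5 (log2 fold change -0.48, SE 0.079, adjusted p = 0.0063) and higher at P9 (1.08, SE 0.21, adjusted p = 0.0081). Its P9 counts were 8793, 9554, 7638, 9867, 4477 and 14273 in *Isl1CKO*, against 3792, 2382, 3442, 2851 and 3545 in Control. The counts are summed over the whole gene, so transcripts of a recombined allele can still be counted and this is no check of the deletion; Isl1CKO and Control are used here as the names that the labels give. The β-cell markers were detected in every group. At P9, 6 of 8 were lower in *Isl1CKO*, but not *Iapp* and *Nkx6-1*, where 2.14% of all genes were called lower. At E14.5, 1 of 8, *Pdx1*, was lower, where 0.827% of all genes were. In a sorted bulk sample, fewer cells of a type and less RNA per cell cannot be told apart.

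At P9, 6 of the 8 genes were lower in *Isl1CKO* and none was called higher in the main edgeR test of the P9 libraries. *Ucp2* was called higher by 2 other tools and by edgeR over all 22 libraries, as given with its values. The median log2 fold change of the 8 was -1.85, against 0.02 over all genes tested. The 8 were chosen with earlier results of these data known, so values over all genes give scale and do not test the set. Of all genes tested, 2.14% were called lower and 2.66% higher. For 7 of the 8 the *Isl1CKO* and Control ranges did not overlap, with *Isl1CKO* below, whereas 2.57% of all genes were separated in that way and 2.81% in the other. Scaled by total counts, which moves the median of all genes to 0.68, the split over all genes was 3811 higher and 151 lower at P9 in place of 372 and 299, and the 6 genes were still called lower. At E14.5, 1 gene was lower and 1 higher, with 0.827% and 0.602% of all genes called lower and higher. The median of the 8 was -0.49 at E14.5, against -0.0045 over all genes. A call means a Benjamini-Hochberg adjusted p under 0.05 over all genes tested, by edgeR's quasi-likelihood test, and levels are counts per 1000000 of the scaled library size of that age (CPM). The plot of effects at both ages shows this order.

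**Figure D1:**
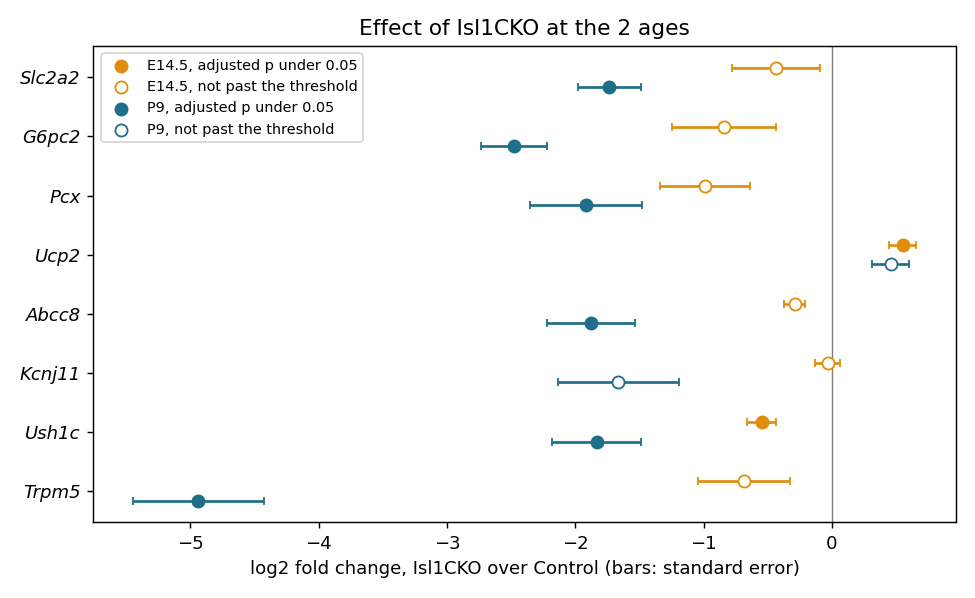
Log2 fold change of *Isl1CKO* over Control (x axis) for the 8 genes (y axis), at E14.5 (orange) and P9 (blue), with bars for the standard error and filled points for an adjusted p under 0.05. At P9 the 6 called genes lie between -4.94 and -1.73, whereas at E14.5 only *Ush1c* (-0.55) and *Ucp2* (0.55) were called.

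*Slc2a2* (ENSMUSG00000027690, GRCm38 chr3:28697903-28731359, plus strand) was 3.32-fold lower in *Isl1CKO* at P9. Its levels were 212, 272, 286, 311, 99.0 and 139 CPM in the 6 *Isl1CKO* libraries, against 573, 789, 759, 770.1 and 759 CPM in the 5 Control libraries. The groups did not overlap, and *Isl1CKO* library 5 was the lowest of all. The log2 fold change was -1.73 (SE 0.25, adjusted p = 0.0007). At E14.5 the levels were 217, 149, 167, 78.4 and 83.4 CPM in *Isl1CKO*, against 281, 281, 176, 210.1, 66.9 and 113 CPM in Control. These groups overlapped throughout, with the lowest value in a Control library, and the difference did not pass the test (-0.44, SE 0.35, adjusted p = 0.71). Hepatoblast markers, another cell type that uses GLUT2, summed to 50.8 to 230.3 CPM in *Isl1CKO* and 15.2 to 57.3 CPM in Control at E14.5, with 2 of the 6 tested, *Apoa1* and *Fgb*, higher in *Isl1CKO*. At P9 these markers summed to 1.41 to 57.3 CPM in *Isl1CKO*, highest in library 5, and 5.11 to 15.6 CPM in Control. None of the 2 tested at P9 was called. Their part in the level of *Slc2a2* was not tested at either age.

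*G6pc2* (ENSMUSG00000005232, chr2:69211073-69227841, plus strand) was 5.56-fold lower in *Isl1CKO* at P9. It had 226, 232, 261, 176, 88.4 and 104 CPM in *Isl1CKO* libraries, against 884, 1249, 954, 1116 and 835 CPM in Control libraries. The highest *Isl1CKO* library stood far under the lowest Control library, and the log2 fold change was -2.48 (SE 0.26, adjusted p = 4.4e-05). At E14.5 it had 288, 128, 195, 41.6 and 56.4 CPM in *Isl1CKO*, against 367, 298, 206, 165, 181 and 301 CPM in Control. Here 3 of 5 *Isl1CKO* libraries lay below all Control libraries, and the spread within *Isl1CKO* was wide (-0.84, SE 0.41, adjusted p = 0.46). The gene whose deviations from the 4 group means were most like those of *G6pc2* over the 22 libraries was *Ins2*, with Pearson's r = 0.94 and Spearman's rho = 0.94, and r = 0.92 without the 2 libraries farthest from the median. *Ins2* was picked as the highest r of 17264 genes searched.

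*Pcx* (ENSMUSG00000024892, chr19:4510472-4621752, plus strand) was 3.78-fold lower in *Isl1CKO* at P9. It had 11.0, 22.0, 18.6, 2.09, 21.6 and 7.18 CPM in *Isl1CKO*, against 40.4, 56.3, 43.5, 53.8 and 65.6 CPM in Control. The groups did not overlap, and the lowest *Isl1CKO* library was library 4 and not library 5. The log2 fold change was -1.92 (SE 0.44, adjusted p = 0.018), and without Control library 5 the adjusted p was 0.0502. At E14.5 it had 14.2, 7.28, 9.60, 2.29 and 8.68 CPM in *Isl1CKO*, against 15.2, 19.8, 18.9, 19.1, 10.9 and 16.2 CPM in Control. In 4 of 5 *Isl1CKO* libraries the level was under every Control library, yet the difference did not pass the test (-0.99, SE 0.35, adjusted p = 0.25).

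*Ucp2* (ENSMUSG00000033685, chr7:100493337-100502020, plus strand) was the only one of the 8 with a higher level in *Isl1CKO* at either age. At E14.5 it had 245, 206, 251, 258 and 297 CPM in *Isl1CKO*, against 148, 153, 209, 184, 166 and 171 CPM in Control. The lowest *Isl1CKO* library fell just under the highest Control library, and the log2 fold change was 0.55 (SE 0.11, adjusted p = 0.019). Without *Isl1CKO* E14.5 library 5 the adjusted p was 0.068. At P9 it had 381, 359, 315, 396, 367 and 379 CPM in *Isl1CKO*, against 278, 193, 355, 256 and 249.6 CPM in Control. Control library 3 reached into the *Isl1CKO* range, and the difference did not pass the test (0.46, SE 0.14, adjusted p = 0.087). Without that library the adjusted p was 0.029. With all P9 libraries it was 0.030 by DESeq2 and 0.048 by limma-voom, and 0.019 by edgeR in the model over all 22 libraries. *Ucp2* shares 305 exon bases with *Dnajb13*, which had 85 reads in all at P9 and 53 at E14.5.

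**Figure D2:**
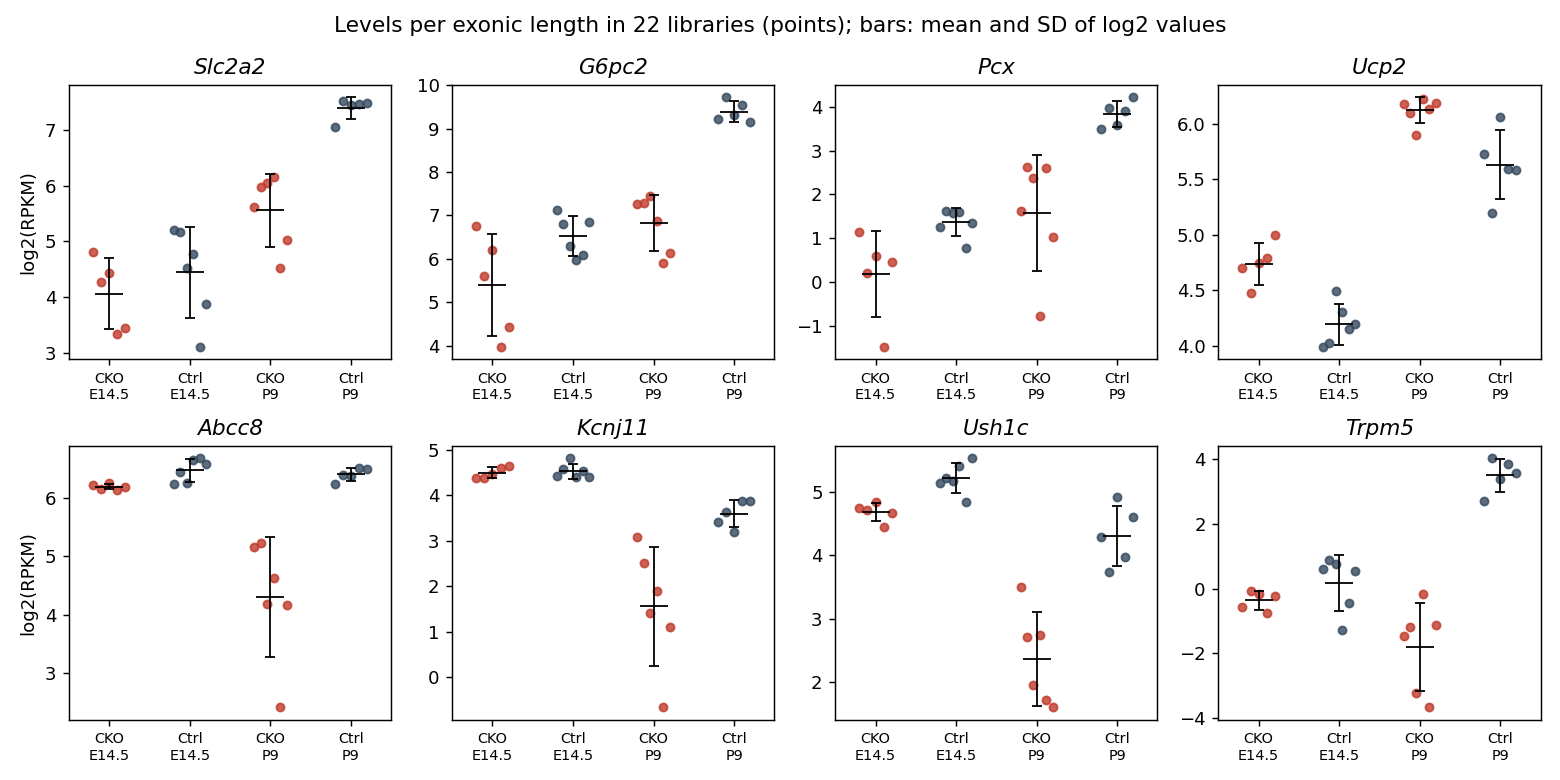
Log2 of reads per kilobase of exon and 1000000 scaled counts (RPKM, y axis) for each of the 8 genes in the 22 libraries (points, *Isl1CKO* red, Control dark blue), with the mean and SD of the log2 values as bars. At P9 the *Isl1CKO* points lie below all Control points in 7 panels, and in the *Ucp2* panel the groups overlap.

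Both subunits of the KATP channel had lower levels in *Isl1CKO* at P9, but only *Abcc8* passed the test. *Abcc8* (ENSMUSG00000040136, chr7:46104523-46180033, minus strand) had 216, 228, 111, 152, 32.1 and 108 CPM in *Isl1CKO*, against 460.0, 511, 511, 565 and 545 CPM in Control, a log2 fold change of -1.88 (SE 0.34, adjusted p = 0.0044). *Kcnj11* (ENSMUSG00000096146, chr7:46093953-46100764, minus strand) had 23.4, 15.8, 7.34, 10.4, 1.73 and 5.83 CPM in *Isl1CKO*, against 29.4, 34.4, 25.6, 40.8 and 39.9 CPM in Control, a log2 fold change of -1.66 (SE 0.47, adjusted p = 0.056). For both genes the groups did not overlap and *Isl1CKO* library 5 was the lowest, at 6.19% of the Control mean for *Abcc8* and 5.08% for *Kcnj11*. The *Kcnj11* adjusted p was 0.033 without *Isl1CKO* library 5 and 0.019 without *Isl1CKO* library 1, which was the highest, at 68.7% of the Control mean. DESeq2 gave 0.014 and limma-voom 0.016 for *Kcnj11*.

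At E14.5 neither subunit passed the test. *Abcc8* had 819.8, 772, 829, 766 and 789 CPM in *Isl1CKO*, against 817, 954, 823, 1090.3, 1116 and 1033 CPM in Control (-0.29, SE 0.084, adjusted p = 0.13). *Kcnj11* had 103, 103, 109.7, 120.1 and 122 CPM in *Isl1CKO*, against 105, 118, 139, 105, 115 and 104 CPM in Control (-0.03, SE 0.098, adjusted p = 0.94). The *Isl1CKO* libraries thus differed little among themselves in *Abcc8*, and both genes overlapped between groups.

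The ratio of the 2 subunits within a library does not depend on scaling. At P9 the log2 ratio of *Kcnj11* to *Abcc8* counts was -3.21, -3.84, -3.90, -3.86, -4.16 and -4.20 in *Isl1CKO*, against -3.96, -3.89, -4.31, -3.79 and -3.77 in Control. The mean difference was 0.08, with a 95% interval of -0.28 to 0.50 (exact two-sided permutation test, p = 0.69, adjusted p = 0.76 over 10 ratios). The interval leaves room for a shift of up to 0.50 on this scale. At E14.5 the difference was 0.25, with an interval of -0.09 to 0.55 (exact permutation test, p = 0.15, adjusted p = 0.24). Per length of exon, *Abcc8* was 6.76 times as high as *Kcnj11* in the median *Isl1CKO* library at P9 (4.21 to 8.44) and 6.75 times in the median Control library (6.20 to 9.08). At E14.5 the same medians were 3.41 (2.90 to 3.62) in *Isl1CKO* and 4.05 (2.70 to 4.74) in Control. The values per length use all annotated exon bases of each gene and depend on that annotation.

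*Ush1c* (ENSMUSG00000030838, chr7:46195350-46238503, minus strand), which starts beyond *Abcc8*, was lower in *Isl1CKO* at both ages. At P9 it had 32.8, 19.0, 11.2, 19.4, 9.47 and 8.72 CPM in *Isl1CKO*, against 56.4, 38.4, 88.7, 45.8 and 69.4 CPM in Control, and no library overlapped (-1.83, SE 0.35, adjusted p = 0.0058). It shares 120 exon bases with the opposite-strand gene model *Gm9860*, which had -1.41 (SE 0.67, adjusted p = 0.29) at P9. At E14.5 it had 139, 135, 147, 113 and 129.9 CPM in *Isl1CKO*, against 181, 194, 185, 218, 148 and 237 CPM in Control. The lowest Control library lay just above the highest *Isl1CKO* library (-0.55, SE 0.12, adjusted p = 0.031), and of all genes 1.29% were separated in this direction and 1.20% in the other. The E14.5 call was lost on leaving out each of 7 of the 11 libraries, with adjusted p up to 0.090. The log2 ratio of *Ush1c* to *Abcc8* differed by 0.19 between groups at P9, with an interval of -0.63 to 1.01 (exact permutation test, p = 0.66).

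*Kcnj11*, *Abcc8* and *Ush1c* follow each other on the minus strand of chromosome 7, with 3758 bp between the first 2 and 15316 bp between *Abcc8* and *Ush1c*. The nearest tested protein-coding gene on either side did not pass the test at P9. *Nomo1*, beyond *Kcnj11*, had a log2 fold change of -0.08 (SE 0.33, adjusted p = 0.95), and *Kcnc1*, a potassium channel gene beyond *Ush1c*, had 1.79 (SE 1.2, adjusted p = 0.51). The antisense gene *Gm45486*, which lies over *Abcc8* with no shared exon bases, had -1.32 (SE 0.44, adjusted p = 0.11) at P9. The counting was not stated to use strand, so intronic or antisense reads of this region cannot be told apart by strand.

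**Figure D3:**
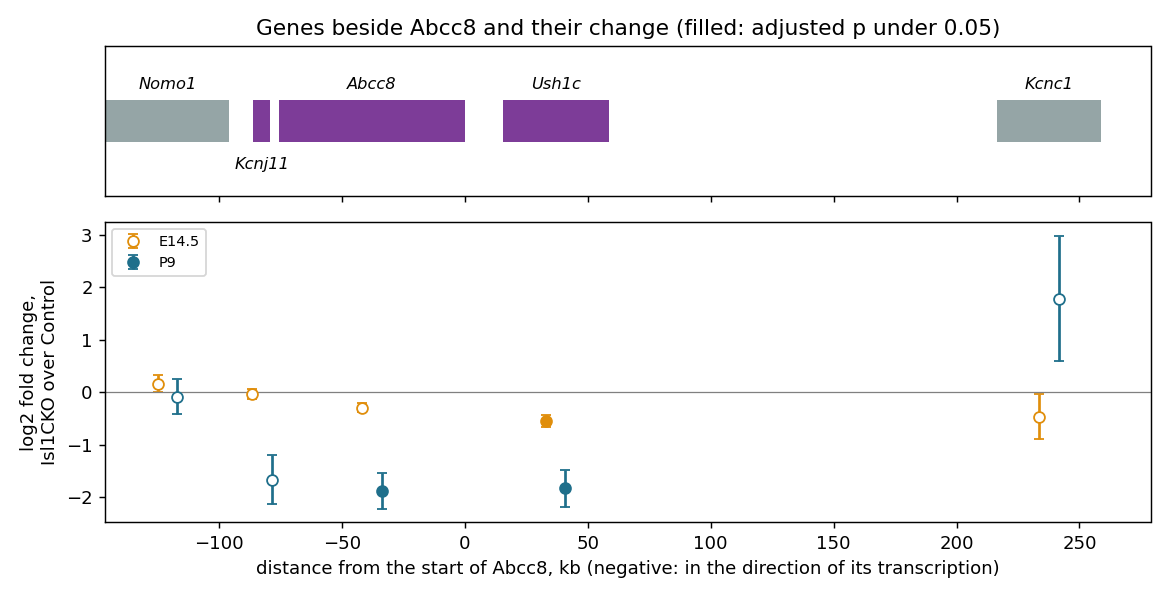
Upper panel, *Kcnj11*, *Abcc8* and *Ush1c* (purple) with the nearest tested protein-coding gene on each side (grey), other genes not drawn, against distance from the start of *Abcc8* (kb). Lower panel, log2 fold change of *Isl1CKO* over Control with its standard error at E14.5 (orange) and P9 (blue), filled where the adjusted p was under 0.05; the P9 values of the 3 genes lie between -1.88 and -1.66, and that of *Nomo1* is -0.08.

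*Trpm5* (ENSMUSG00000009246, chr7:143069153-143094642, minus strand) had the most negative log2 fold change of the 8 at P9. With few reads in *Isl1CKO*, *Trpm5* passed the filter on low counts at P9 mainly through Control. The size of its fold is therefore poorly fixed, and its call is no support for a change of the set. It had 1.73, 2.11, 0.518, 4.28, 0.376 and 2.18 CPM in *Isl1CKO*, from 5 to 45 reads a library, against 31.1, 78.3, 50.6, 69.3 and 56.3 CPM in Control, from 296 to 690 reads. No library overlapped, and the log2 fold change was -4.94 (SE 0.51, adjusted p = 4.4e-05). At E14.5 it had 5.76, 8.03, 7.71, 5.01 and 7.24 CPM in *Isl1CKO*, against 12.8, 15.7, 14.3, 3.48, 6.33 and 12.6 CPM in Control. The Control libraries fell on both sides of the *Isl1CKO* range (-0.69, SE 0.36, adjusted p = 0.50).

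*Tssc4*, on the opposite strand, overlaps the end of *Trpm5* and shares 220 exon bases with it. It was also lower at P9 (-1.46, SE 0.28, adjusted p = 0.0064), and at E14.5 its log2 fold change was -0.07 (SE 0.12, adjusted p = 0.90). Reads in the shared bases cannot be assigned to 1 of the 2 genes without strand, and their part in either result was not tested. Summed tuft cell markers were 6.19 to 34.7 CPM in *Isl1CKO* and 7.04 to 12.9 CPM in Control at P9, and 8.33 to 13.5 CPM and 15.7 to 39.5 CPM at E14.5. None of the tuft genes tested, 2 at P9 and 3 at E14.5, passed the test, and their part in the level of *Trpm5* was not tested. Against *Trpm4*, a related cation channel, the log2 ratio of *Trpm5* at P9 was -2.24, -2.01, -2.87, -0.45, -4.90 and 0.00 in *Isl1CKO*, against 0.48, 3.17, 1.34, 3.56 and 1.85 in Control. The mean difference was -4.16 with an interval of -6.24 to -2.04 (exact permutation test, p = 0.0043, adjusted p = 0.022), and all 6 *Isl1CKO* libraries lay below all Control libraries. This ratio uses the same few *Trpm5* reads in *Isl1CKO* as the call above, so it is no separate support and its size is poorly fixed.

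**Figure D4:**
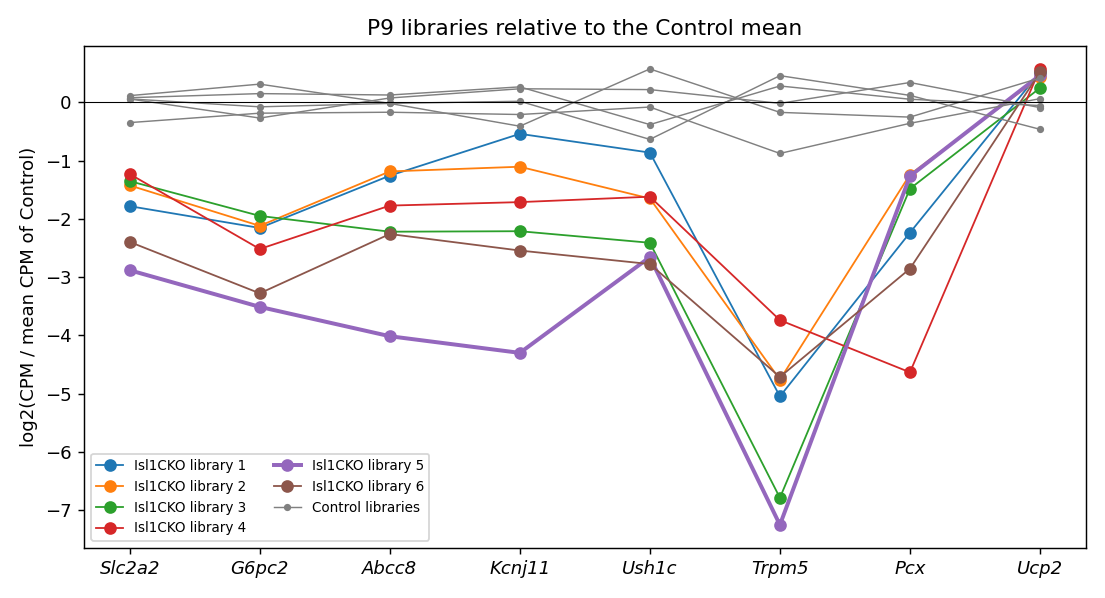
Log2 of each P9 library's CPM over the Control mean (y axis) for the 8 genes (x axis), with a coloured line per *Isl1CKO* library and grey lines for the Control libraries. *Isl1CKO* library 5 (thick line) is the lowest for *Slc2a2*, *G6pc2*, *Abcc8*, *Kcnj11* and *Trpm5*, but library 6 is the lowest for *Ush1c* and library 4 for *Pcx*.

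*Isl1CKO* library 5, which was lowest for 5 of the genes, also had the lowest share of reads from *Ins2*, 7.54%, against 8.63 to 18.5% in the other *Isl1CKO* libraries and 31.2 to 39.8% in Control. Mitochondrially encoded genes took 2.68 to 3.89% of counts in *Isl1CKO* and 1.94 to 2.69% in Control at P9. The 8 β-cell markers summed to 100924 to 253759 CPM in *Isl1CKO* and 521407 to 731787 CPM in Control at P9, and *Ins2* had a log2 fold change of -1.99 (SE 0.27, adjusted p = 0.0004). *Mafa*, a β-cell transcription factor, had -5.60 (SE 0.68, adjusted p = 0.0002). The part of these shares in the fall of the 6 genes was not tested. Without library 5, *Slc2a2*, *G6pc2*, *Abcc8*, *Trpm5*, *Ush1c* and *Pcx* were still called.

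The ratio of 2 glucose transporters within a library was compared in the same way. *Slc2a2* against *Slc2a1*, a more widely used glucose transporter, differed by -2.02 at P9 with an interval of -4.04 to -0.18 and did not hold after adjustment (exact permutation test, p = 0.037, adjusted p = 0.12). *Slc2a1* averaged 3.39 ± 3.12 CPM in *Isl1CKO* and 2.66 ± 1.50 CPM in Control at P9 (SD, n = 6 and 5; log2 fold change 0.35, adjusted p = 0.87), and *Hk1*, a low-Km hexokinase, averaged 1.02 ± 0.53 and 1.54 ± 1.46 CPM (-0.59, adjusted p = 0.73).

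**Figure D5:**
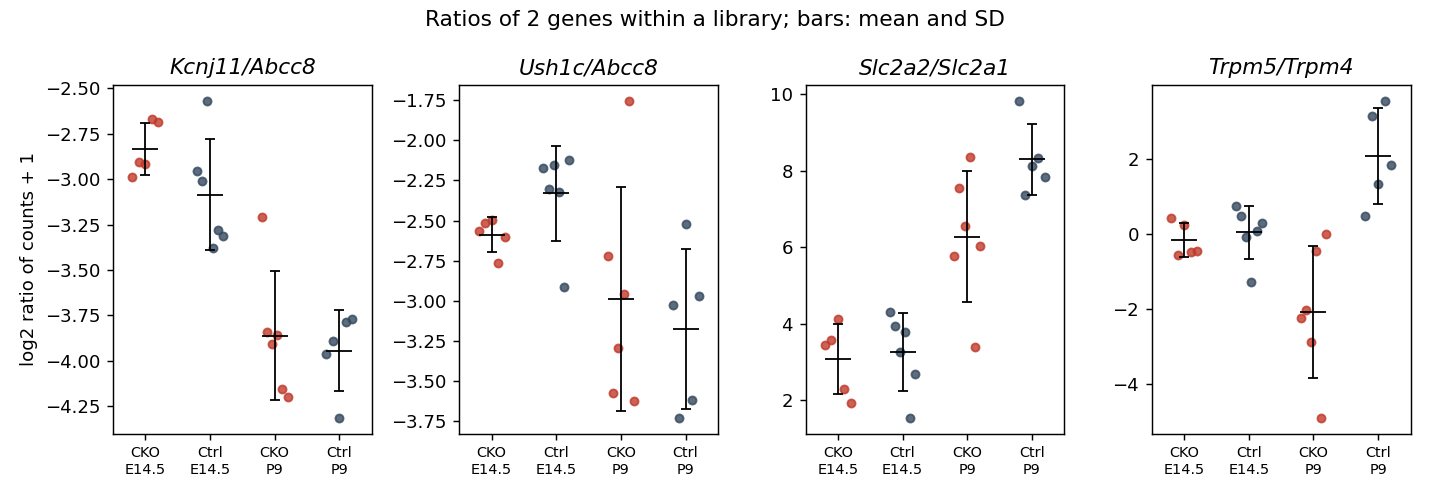
Log2 ratio of the counts of 2 genes within a library (y axis, 1 added to each count) in the 4 groups, with points for libraries and bars for the mean and SD. *Trpm5*/*Trpm4* at P9 separates all *Isl1CKO* from all Control libraries, with few *Trpm5* reads in *Isl1CKO*, and *Kcnj11*/*Abcc8* overlaps at both ages.

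The other genes of glucose entry, mitochondrial metabolism and membrane excitability were counted from lists. In the list for glucose entry and phosphorylation, 0 of 13 tested passed at E14.5, where 1.43% of all genes did. At P9, 1 of 15 was higher and 3 were lower, where 4.81% of all genes were called in either direction. Of these 4 genes, *Pfkfb2*, which makes an activator of glycolysis, had 334 to 595 reads a library in *Isl1CKO* and 421 to 1186 in Control. It averaged 35.1 ± 6.55 CPM in *Isl1CKO* and 78.3 ± 33.0 CPM in Control (log2 fold change -1.16, SE 0.25, adjusted p = 0.014). The other 3 had few reads in 1 of the groups and passed the filter on low counts mainly through the group where they were high, so their calls are no support for a change of the list and no fold is given. *Pfkfb3*, of the same enzyme family, had 89 to 325 reads a library in *Isl1CKO* and 1 to 20 in Control. The sodium-coupled glucose transporter gene *Slc5a1* had 0 to 3 reads in *Isl1CKO* and 21 to 101 in Control. *Slc2a6*, another glucose transporter gene, had 1 to 21 reads in *Isl1CKO* and 9 to 139 in Control.

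In the list for pyruvate and the mitochondrial shuttles, 1 of 24 tested was higher at E14.5 and 1 of 25 at P9, with none lower. Of all genes tested, 0.602% were called higher at E14.5 and 2.66% at P9, so these counts of 1 gene are no result about the list. The genes called were *Slc25a1*, the citrate carrier, at E14.5 (0.37, SE 0.086, adjusted p = 0.048), and *Glud1*, glutamate dehydrogenase, at P9. At P9 *Slc25a1* had -0.95 (SE 0.31, adjusted p = 0.10). *Glud1* averaged 251 ± 32.1 CPM in *Isl1CKO* and 122 ± 14.8 CPM in Control (1.05, SE 0.13, adjusted p = 0.0003). Among channels of membrane excitability 0 of 22 passed at E14.5, where 1.43% of all genes did. At P9, 2 of 21 were higher with none lower, where 2.66% of all genes were called higher. The sodium channel gene *Scn3a* averaged 141 ± 14.7 CPM in *Isl1CKO* and 44.9 ± 12.2 CPM in Control (1.65, SE 0.19, adjusted p = 0.0001), and the calcium channel subunit gene *Cacna2d1* averaged 280.5 ± 60.6 and 146 ± 26.7 CPM (0.94, SE 0.17, adjusted p = 0.0047). *Trpm4* had -1.01 (SE 0.49, adjusted p = 0.31).

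Whether the effect of *Isl1CKO* differed between ages was tested in 1 model over 22 libraries. The difference, P9 effect minus E14.5 effect, was called for 2 of the 8 genes, *Trpm5* (-4.25, SE 0.62, adjusted p = 0.0004) and *Abcc8* (-1.58, SE 0.38, adjusted p = 0.027). The *Trpm5* value rests on few reads in *Isl1CKO* P9, so its size is poorly fixed. Of all genes tested, 2.08% were called, 0.851% in the negative and 1.23% in the positive direction, and with total counts 90 genes were negative and 3090 positive in place of 147 and 212. For *Abcc8* the adjusted p was 0.051 without *Isl1CKO* E14.5 library 1 and 0.0502 without library 3 of that group. Leaving out 1 library also added calls, of *G6pc2* without *Isl1CKO* E14.5 library 4 (adjusted p = 0.038), of *Kcnj11* without *Isl1CKO* P9 library 1 (0.0098) or 5 (0.030) and of *Ush1c* without *Isl1CKO* P9 library 1 (0.0063). With all libraries the other differences were negative and not called, with adjusted p of 0.15 for *Slc2a2* (-1.29), 0.095 for *G6pc2* (-1.63), 0.076 for *Kcnj11* (-1.63), 0.069 for *Ush1c* (-1.28), 0.50 for *Pcx* (-0.92) and 0.90 for *Ucp2* (-0.08).

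With age, the Control levels of the 8 genes went in both directions. Between Control P9 and Control E14.5, 5 of the 8 were higher and 2 lower, with 31.0% of all genes called, 15.8% higher and 15.2% lower. *Trpm5* averaged 11.9 ± 3.77 RPKM in Control P9 and 1.27 ± 0.57 RPKM in Control E14.5 (log2 fold change 3.22, SE 0.44, adjusted p = 6.1e-06). *G6pc2* averaged 678 ± 114 and 96.0 ± 30.6 RPKM (2.82), *Slc2a2* 169 ± 20.3 and 24.4 ± 11.3 RPKM (2.79), *Pcx* 14.54 ± 2.93 and 2.63 ± 0.53 RPKM (2.47), and *Ucp2* 50.6 ± 10.9 and 18.4 ± 2.43 RPKM (1.46) in Control P9 and Control E14.5. *Kcnj11* (-0.92, SE 0.34, adjusted p = 0.045) and *Ush1c* (-0.87, SE 0.26, adjusted p = 0.015) were lower in Control P9, and *Abcc8* was not called (-0.08, SE 0.27, adjusted p = 0.85). The *Kcnj11* call was lost on leaving out each of 16 of the 22 libraries, with adjusted p up to 0.10.

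In *Isl1CKO* the same age contrast had 4 of the 8 higher and 3 lower, with 29.7% of all genes called, 16.0% higher and 13.7% lower. *Slc2a2* averaged 50.8 ± 19.6 RPKM in *Isl1CKO* P9 and 18.0 ± 7.52 RPKM in *Isl1CKO* E14.5 (1.50, SE 0.33, adjusted p = 0.0015), and *G6pc2* 122 ± 47.9 and 53.5 ± 38.3 RPKM (1.19, SE 0.37, adjusted p = 0.017). *Pcx* and *Ucp2* were higher by 1.54 and 1.38, and *Ush1c*, *Kcnj11* and *Abcc8* had -2.15, -2.54 and -1.66. *Trpm5* averaged 0.39 ± 0.29 RPKM in *Isl1CKO* P9 and 0.79 ± 0.15 RPKM in *Isl1CKO* E14.5 (-1.03, SE 0.44, adjusted p = 0.083). Without *Isl1CKO* P9 library 4 *Trpm5* was called (adjusted p = 0.016), and without *Isl1CKO* E14.5 library 5 the call of *G6pc2* was lost (0.054). Age and the tissue dissociation cannot be told apart. The scaling bears on these values, because total counts move the median of all genes to -0.50 in the *Isl1CKO* age contrast, with 1218 genes called higher and 5499 lower in place of 2758 and 2366, and to -1.21 in the Control one, with 605 and 10031 in place of 2721 and 2626. Scaled by total counts, *Abcc8* was called lower in Control P9 (-1.26) and *Ucp2* was no longer called higher (0.29), and in *Isl1CKO* P9 the calls for *G6pc2* (0.60) and *Pcx* (0.98) were lost and *Trpm5* was called lower (-1.58).

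Per length of exon, *G6pc2* had the highest level of the 8 in 3 groups, and *Abcc8* was close to it in Control E14.5, at 90.0 ± 12.0 against 96.0 ± 30.6 RPKM. The length counts every exon base annotated for a gene, 6989 for *Ucp2* and 8090 for *Abcc8*. The order between genes depends on that annotation, and the lengths of the transcripts present were not measured. In *Isl1CKO* E14.5 the order turned, with *Abcc8* at 73.5 ± 2.36 RPKM above *G6pc2* at 53.5 ± 38.3 RPKM, within the spread of *G6pc2*. In *Isl1CKO* P9, *G6pc2* at 122 ± 47.9 RPKM was followed by *Ucp2* at 69.9 ± 5.45 RPKM, whereas in Control P9 *Slc2a2* at 169 ± 20.3 RPKM stood second and *Ucp2* at 50.6 ± 10.9 RPKM came after *Abcc8*. *Trpm5* was the lowest of the 8 in every group by its mean, at 0.39 ± 0.29 RPKM in *Isl1CKO* P9, 0.79 ± 0.15 RPKM in *Isl1CKO* E14.5 and 1.27 ± 0.57 RPKM in Control E14.5, and in Control P9 it was within the spread of *Kcnj11*, at 11.9 ± 3.77 and 12.3 ± 2.42 RPKM.

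Within groups, the deviations of *Abcc8* and *Kcnj11* from the group means over the 22 libraries went together with Pearson's r = 0.92 and Spearman's rho = 0.54, and with r = 0.78 without the 2 libraries farthest from the *Abcc8* median. These values are descriptions over libraries that share their dissociation within each age. *Slc2a2* and *G6pc2* had r = 0.72. Of the 28 pairs among the 8 genes, 4 had r over 0.5, with a median of 0.31 and a range of -0.41 to 0.92. The genes most like each by this measure were *Tmem215* for *Slc2a2* (r = 0.93), *Jazf1* for *Abcc8* (0.95), *Cisd1* for *Trpm5* (0.85), *Lman2l* for *Ush1c* (0.84), *Wipi1* for *Pcx* (0.87) and *Polr2m* for *Ucp2* (0.79). Each was picked as the highest r of 17264 genes searched, so a high value is partly due to the search. For *Jazf1* Spearman's rho was only 0.51, against 0.71 to 0.89 for the others named here. Without the 2 libraries farthest from the *Abcc8* median, r for *Jazf1* was 0.70.

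The promoters of the 5 genes that were lower at P9 and had a RefSeq match are shown. ISL1 is a homeodomain protein, a class known to bind sites with a TAAT core. Its part in the levels of these genes was not tested here. The study mapped ISL1 binding by CUT&Tag in E14.5 cells. Among genes it calls lower at P9, it names *Abcc8* and *Kcnj11* as bound by ISL1 at their promoters. Each is the 250 bases before the RefSeq start (GRCm38.p6), 5′ to 3′ on the strand of the gene, with TAAT or its reverse complement ATTA in capitals. They lie at chr2:69210823-69211072 on the plus strand for *G6pc2*, chr3:28697653-28697902 on the plus strand for *Slc2a2*, chr7:46238491-46238740 on the minus strand for *Ush1c*, chr7:143094643-143094892 on the minus strand for *Trpm5* and chr19:4510222-4510471 on the plus strand for *Pcx*. RefSeq promoters were matched for 6 of the 8 genes, and those of *Abcc8* and *Kcnj11* were not among them.
G6pc2: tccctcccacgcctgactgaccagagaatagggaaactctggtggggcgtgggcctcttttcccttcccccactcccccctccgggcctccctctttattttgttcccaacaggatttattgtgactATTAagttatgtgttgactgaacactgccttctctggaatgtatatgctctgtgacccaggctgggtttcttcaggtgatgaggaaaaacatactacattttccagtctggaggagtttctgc
Slc2a2: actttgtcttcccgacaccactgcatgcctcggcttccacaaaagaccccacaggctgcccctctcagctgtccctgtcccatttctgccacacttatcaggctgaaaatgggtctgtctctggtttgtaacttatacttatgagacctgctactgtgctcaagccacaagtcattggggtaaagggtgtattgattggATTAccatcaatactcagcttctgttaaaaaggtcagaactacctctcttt
Ush1c: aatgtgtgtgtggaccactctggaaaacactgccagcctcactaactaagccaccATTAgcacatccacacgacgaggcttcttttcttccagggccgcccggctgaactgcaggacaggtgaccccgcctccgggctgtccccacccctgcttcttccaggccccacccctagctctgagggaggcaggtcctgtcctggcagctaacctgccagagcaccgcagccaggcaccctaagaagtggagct
Trpm5: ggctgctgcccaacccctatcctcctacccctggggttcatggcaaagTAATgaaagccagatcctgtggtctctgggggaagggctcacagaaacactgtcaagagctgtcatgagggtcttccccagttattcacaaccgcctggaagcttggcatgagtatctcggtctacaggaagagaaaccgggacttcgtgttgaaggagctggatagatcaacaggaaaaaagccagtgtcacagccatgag
Pcx: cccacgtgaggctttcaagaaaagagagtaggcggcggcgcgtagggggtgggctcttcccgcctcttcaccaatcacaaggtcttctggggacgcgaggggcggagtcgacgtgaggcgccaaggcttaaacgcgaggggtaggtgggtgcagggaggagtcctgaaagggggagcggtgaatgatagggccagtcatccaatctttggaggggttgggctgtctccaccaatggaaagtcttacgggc
There is 1 match each in *G6pc2* (123 bases before the start), *Slc2a2* (51), *Ush1c* (195) and *Trpm5* (202), and none in *Pcx*. *G6pc2* and *Pcx* each have a second RefSeq start, whose promoter holds 3 matches in *G6pc2* (237, 92 and 9 bases before that start) and 1 in *Pcx* (181). The promoter of *Ucp2* holds none. Of 32536 RefSeq promoters of the same length, 54.8% hold at least 1 match on either strand, so a match is common, and it says nothing of binding.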

How the data were processed

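The authors sorted 100 tdTomato+ cells per library, made cDNA with a low-input kit, trimmed the reads (cutadapt 1.18), removed ribosomal reads (Bowtie 1.2.2), aligned them with STAR 2.7.0c to GRCm38.p6 and counted uniquely mapped reads per gene. The deposited counts are whole reads per Ensembl gene, 1 table per age, and rows summing to under 10 were absent from both tables. Here genes with low counts were removed with filterByExpr, libraries were scaled by TMM, and groups were compared with edgeR 4.0.16 (quasi-likelihood F test, adjusted p over all 15960 genes at E14.5 and 13964 at P9). A model over 22 libraries and 17265 genes tested the difference between ages. RPKM used the length of all exon bases annotated for a gene in GENCODE M21. Ratios within a library used counts plus 1 and exact permutation tests, their intervals being the shifts that test did not reject. limma 3.58.1 (voom), DESeq2 1.42.0, other scalings, a replicate block and leave-one-out fits were alternatives. The test was tested on simulated data.

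The 8 genes and all gene lists were chosen with earlier results of these data known. The genes named beside them are *Slc2a1* and *Hk1*, up to 5 called genes per pathway list and age, the nearest tested protein-coding genes, and the 3 genes most like each of the 8 by correlation over 22 libraries. The text gives those that bear on a result, and 1 further gene and its ratio, which counts among the 10 over which p was adjusted, are not reported here. Depth per library is in the report, and counts of a few reads (*Trpm5* in *Isl1CKO*) are limited by it.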

Additional observations from a re-analysis of the deposited data

Results flagged for a closer look

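In Control P9, *Slc2a2* of library 1 stood apart from the other 4 libraries, at 573 CPM with the nearest at 759 CPM. This was 1 of 32 sets of libraries checked for a value far from the rest, and chance alone gives about 1 in 20.

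The test of the difference between ages called *Abcc8* (-1.58, P9 effect minus E14.5 effect) and *Trpm5* (-4.25). The *Abcc8* call was lost without *Isl1CKO* E14.5 library 1 or library 3. The *Trpm5* value rests on 5 to 45 reads a library in *Isl1CKO* P9, so its size is poorly fixed and its call is no support for a change of the set.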

How the results depend on the processing

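At E14.5, 2 of the 8 genes were called, against 1 with a replicate block, 0 in the model over 22 libraries and 0 to 2 when each library was left out. At P9, 6 were called, against 4 with the replicate block, 7 with total counts, 7 with totals that omit 8 hormone genes, 8 with limma-voom, DESeq2 or the 22-library model, and 5 to 7 when each library was left out. The block ended the P9 calls of *Ush1c* (adjusted p = 0.052) and *Pcx* (0.063) and the E14.5 call of *Ush1c* (0.14). Replicate numbers did not pair the libraries, with correlations of -0.051 to 0.054 between libraries of 1 number. The difference between ages was called for 2 genes, against 4 with limma-voom and 1 to 4 when each library was left out. Over all genes, calls at E14.5 were 228, against 662 with DESeq2, 134 with the block and 59 in the 22-library model. At P9 they were 671, against 1695 with DESeq2, 333 with the block and 1814 in the 22-library model. Total counts split the P9 calls into 3811 higher and 151 lower, and totals without hormone genes into 292 and 460, against 372 and 299. No value changed sign with a call.

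Depth limits genes with few reads, and the P9 *Trpm5* level of *Isl1CKO* rests on 5 to 45 reads a library.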
